A study of Mus musculus with 4 samples.

Results

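Fatty acid oxidation and peroxisome genes were examined as a list of 36 genes, chosen by gene symbol from the carnitine shuttle, mitochondrial and peroxisomal beta-oxidation, and the peroxins. The array carried 53 probes for them, among 18827 genes that its probes could be named for. A value on all 4 arrays was obtained for 34 of the 36 genes and for 18297 genes in all. The scanner software marked the spot of Echs1 on the DMSO array and that of Acadvl on the bilberry array as outliers, so that both genes had no value.

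Beta-oxidation shortens fatty acyl-CoA by repeated cycles of dehydrogenation, hydration, a second dehydrogenation and thiolysis. Mitochondria take up long-chain acyl groups through the carnitine shuttle and pass the electrons of the first step to the respiratory chain through electron transfer flavoprotein. Peroxisomes shorten very-long-chain and branched-chain acyl groups and bile acid precursors, use oxidases that release hydrogen peroxide, and depend on peroxins for their membranes and for protein import. In adipocytes these pathways stand opposite to lipid storage, and many of their genes respond to peroxisome proliferator-activated receptors.

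3T3-L1 is a mouse preadipocyte line that becomes adipocytes after hormonal induction. RNA was taken on day 2 of induction and hybridized with 1 dye to Agilent Whole Mouse Genome arrays, with 1 array for each of 4 groups. All 4 groups received 0.1% DMSO. The DMSO group received nothing further, and the others were given bilberry extracts at 100 μg/mL, or delphinidin or cyanidin at 100 nM. The question was how the extracts and these anthocyanidins change expression early in differentiation. All groups received 10 μg/mL insulin, 1 μM dexamethasone and 0.5 μM IBMX, a phosphodiesterase inhibitor. With 1 culture read per group, no difference could be checked against a replicate, no p-value is given, and the precision is limited by the small number of arrays.

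A level is given here as the log2 of a probe's intensity over the 75th percentile of its array, so that a level of 0 is the 75th percentile. These percentiles were 861 for DMSO, 576 for bilberry, 1009 for delphinidin and 1016 for cyanidin. A log2 ratio is the difference of 2 levels of the same probe. Levels of different probes were set against each other only in sums over marker genes and to name a gene's brighter or dimmer probe. A further scale was set by the spike-in control RNAs in place of the percentile. On it the median log2 ratio of all named genes moved from 0.34 to -1.20 for bilberry. It moved from -0.10 to 0.16 for delphinidin and from -0.08 to 0.15 for cyanidin. A bilberry ratio above 0 is therefore one relative to the other genes of its array. At the brightest probes of the listed genes, the bilberry ratios above 0 all turn below 0 on the spike-in scale. Of the 34 genes with values, 32 were well above background on all 4 arrays by the software's own test, and 0 spots were saturated. Among 245 probes spotted 10 times, dim ones included, the median SD between spots was 0.05 to 0.06, which gave a single-spot ratio a 95% interval of 0.16 on either side. This interval covers differences between spots and not those between cultures. The label called the cells adipocytes, and on all arrays 10 of 11 adipocyte markers and 7 of 7 preadipocyte and fibroblast markers were well above background, while the adipocyte marker Lep was not on any array.

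On the percentile scale and at the brightest probe of each gene, the ratios to DMSO were under 2-fold in all 3 treatments, apart from that of Acox2, an oxidase of branched-chain acyl groups and bile acid intermediates. With bilberry extracts, 0 genes were over 2-fold higher and 1 of 34 was over 2-fold lower, where 13.5% of all named genes passed 2-fold in either direction. Counting only genes well above background on every array, the number was 1 of 32, beside 10.0% of all such genes. The bilberry count depended on the scaling: with spike-in scaling 26 of 34 genes were over 2-fold lower, where 66.9% of all named genes passed 2-fold, and with the normexp background correction 6 passed, where 52.3% of all did, and Acox2 was not among the 6. Delphinidin gave 1 of 34 beside 7.25% of all named genes, and 1 of 32 beside 2.65%. Cyanidin gave 1 of 34 beside 6.76%, and 1 of 32 beside 1.76%. The gene was Acox2 each time, and the 3 ratios share the DMSO array.

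At a lower threshold of 1.5-fold the shares of the list past the threshold with bilberry lay under those of all genes well above background in both directions. With bilberry, Etfb and Pex14 were over 1.5-fold higher (2 of 32, beside 18.8% of genes well above background) and Acadm, Etfa and Acox2 were over 1.5-fold lower (3 of 32, beside 13.1%). With delphinidin 0 of 32 were higher, beside 4.44%, and Acox2 was the 1 gene lower, beside 5.23%. With cyanidin 0 of 32 were higher, beside 3.14%, and Acox2 was again the 1 gene lower, beside 4.51%. Leaving Acox2 aside, the bilberry ratios ran up to 0.79, against at most 0.35 with delphinidin and 0.58 with cyanidin.

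**Figure D1:**
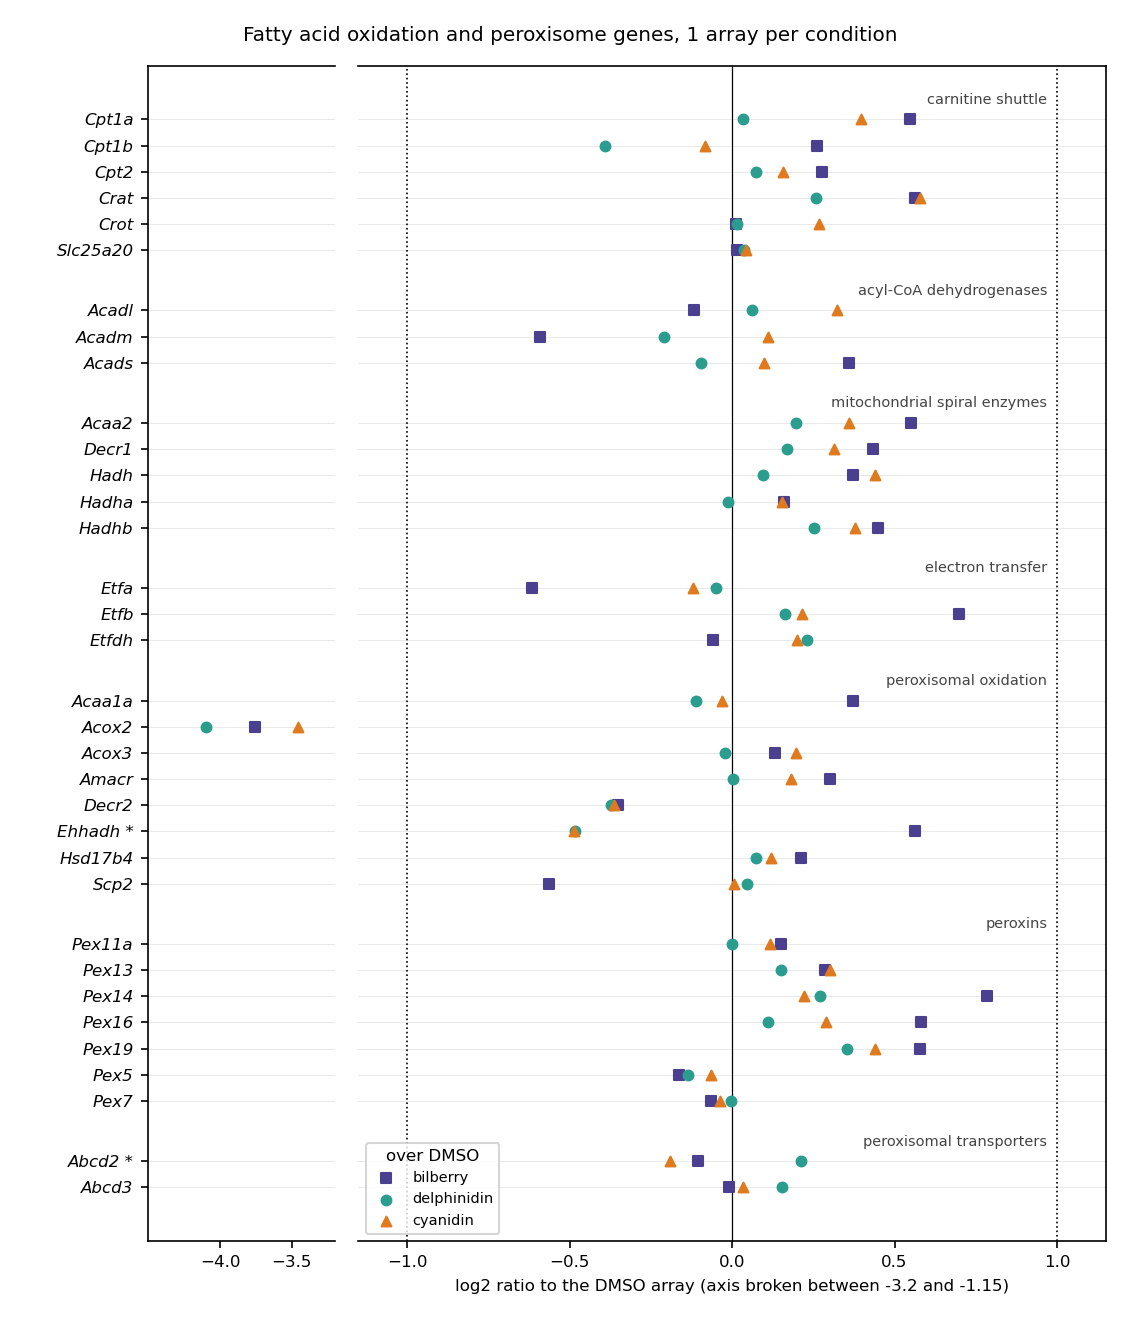
Log2 ratio to the DMSO array of the 34 genes with a value on all 4 arrays, each at its brightest probe, by role, on an axis broken between Acox2 and the others; squares are bilberry, circles delphinidin and triangles cyanidin, each point 1 array against 1 array. Bilberry points above 0 turn below 0 under spike-in scaling. Dotted lines mark 2-fold and an asterisk a gene not well above background on every array; the 3 points of Acox2, at -3.76, -4.10 and -3.46, are past the 2-fold lines and no others are.

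Of the carnitine shuttle genes, Cpt1a and Crat were higher than DMSO with bilberry extracts and with cyanidin, although with bilberry they read lower than DMSO under spike-in scaling. The median of the 6 genes with bilberry, 0.27, lay under the 0.34 of all named genes. Cpt1a, the carnitine palmitoyltransferase of the outer membrane and the regulated step of the shuttle, had levels of 2.32 for DMSO, 2.87 for bilberry, 2.35 for delphinidin and 2.72 for cyanidin. The bilberry and cyanidin arrays were thus high and the DMSO and delphinidin arrays lay together. The ratio to DMSO over 8 pairs of spots was 0.54 ± 0.02 (SD) for bilberry, 0.03 ± 0.02 for delphinidin and 0.40 ± 0.03 for cyanidin. The other Cpt1a probe, a single spot, read 0.59, 0.06 and 0.43 in the same order. Crat, which moves acetyl and other short acyl groups to carnitine, had levels of 3.53, 4.09, 3.79 and 4.11 with DMSO, bilberry, delphinidin and cyanidin. Here bilberry and cyanidin were again the high arrays, with ratios of 0.56 and 0.58, and delphinidin lay between at 0.26. Cpt2, which returns acyl groups to coenzyme A inside the mitochondrion, had levels of 5.06, 5.34, 5.13 and 5.22 in the same order. Its ratios of 0.28 for bilberry, 0.07 for delphinidin and 0.16 for cyanidin put the DMSO array lowest. Slc25a20, the carrier that exchanges acylcarnitine across the inner membrane, was level on the 4 arrays, with ratios between 0.02 and 0.04.

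For the remaining 2 shuttle genes the reading depended on the probe. Cpt1b, the muscle form of the outer membrane transferase, read 0.26 for bilberry, -0.39 for delphinidin and -0.08 for cyanidin at its brighter probe. Its other probe failed the background test with bilberry, where it was at least 3.38-fold lower than with DMSO, the opposite direction. Crot, the peroxisomal carnitine octanoyltransferase, read 0.01, 0.01 and 0.27 at its brighter probe and -1.17, -0.35 and -0.43 at the other. Neither gene therefore had a direction with bilberry that both of its probes shared.

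Of the acyl-CoA dehydrogenases, which start each mitochondrial cycle for acyl chains of different length, the medium-chain enzyme was lower with bilberry extracts. Acadm had levels of 5.74 for DMSO, 5.15 for bilberry, 5.54 for delphinidin and 5.85 for cyanidin. Bilberry was the low array, at -0.59 to DMSO, with delphinidin at -0.21 and cyanidin at 0.11. Acadl, the long-chain enzyme, read -0.12 for bilberry, 0.06 for delphinidin and 0.32 for cyanidin. Acads, the short-chain enzyme, read 0.36, -0.09 and 0.10, so that the 3 dehydrogenases did not move together with bilberry, while cyanidin was the highest of the treatments for 2 of them. With its marked spot kept, Acadvl, the very-long-chain enzyme, read 0.20, 0.01 and -0.02.

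With bilberry, 5 of the 5 enzymes of the later mitochondrial steps with values were higher than DMSO by more than the spot interval. Of all genes well above background, 51.3% were. With delphinidin 3 of the 5 were higher, beside 26.8%, and with cyanidin 4, beside 31.3%. Hadha lay inside the interval with cyanidin. None of the 5 passed 1.5-fold, and with bilberry all 5 read lower than DMSO under spike-in scaling. Acaa2, the thiolase that releases acetyl-CoA, had levels of 4.47 for DMSO, 5.02 for bilberry, 4.66 for delphinidin and 4.82 for cyanidin. The ratio was 0.55 ± 0.02 with bilberry over 8 pairs of spots, 0.20 ± 0.03 with delphinidin over 7 and 0.36 ± 0.03 with cyanidin over 8. All 3 treatments thus exceeded the spread between spots, with bilberry highest. Hadh, the hydroxyacyl-CoA dehydrogenase of short and medium chains, had levels of 3.38, 3.76, 3.48 and 3.82 with DMSO, bilberry, delphinidin and cyanidin. Decr1, the dienoyl-CoA reductase needed for polyunsaturated chains, read 0.43 for bilberry, 0.17 for delphinidin and 0.31 for cyanidin, and its second probe read 0.06, 0.01 and 0.16. With its marked spot kept, the hydratase Echs1 read 0.36, 0.14 and 0.20. The median of the 5 genes with values was 0.43 for bilberry, 0.17 for delphinidin and 0.36 for cyanidin, where all named genes had medians of 0.34, -0.10 and -0.08.

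Hadha and Hadhb encode the alpha and beta subunits of the trifunctional protein, which carries out the last 3 steps on long chains, and they are transcribed away from each other from neighbouring starts. On GRCm38.p6 of RefSeq, 272 bases lie between the 2 starts, and the windows of 250 bases before each start share 228 bases. The Hadhb window (chr5:30155003-30155252, plus strand) is shown in 5′ to 3′ direction since the same stretch, read on the other strand, lies upstream of Hadha, and it held none of the motifs searched below:
Hadhb: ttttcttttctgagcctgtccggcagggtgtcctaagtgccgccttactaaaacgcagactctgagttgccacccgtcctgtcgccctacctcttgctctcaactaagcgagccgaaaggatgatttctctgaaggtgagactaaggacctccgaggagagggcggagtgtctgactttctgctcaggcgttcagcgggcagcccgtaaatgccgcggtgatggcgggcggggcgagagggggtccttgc
Hadhb had levels of 2.53 for DMSO, 2.98 for bilberry, 2.78 for delphinidin and 2.91 for cyanidin, and Hadha had 0.89, 1.05, 0.87 and 1.04. The ratios of Hadhb were 0.45, 0.25 and 0.38, and those of Hadha 0.16, -0.01 and 0.15. In both genes delphinidin was the lowest of the treatments. A further Hadha probe, designed from another transcript record, read 0.98, -0.28 and -0.25, so its bilberry ratio exceeded that of the brighter probe.

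Electron transfer flavoprotein, the acceptor of electrons from the acyl-CoA dehydrogenases, is a dimer of the products of Etfa and Etfb, and with bilberry extracts its 2 genes read in opposite directions on the percentile scale, at -0.62 and 0.70. Under spike-in scaling both were lower than DMSO, at -2.16 and -0.84. A change between these 2 scales moves both genes alike, so it cannot alter the difference between them. The normexp correction and quantile normalization do not move all genes of an array alike and can alter that difference. Their upstream windows are shown because the 2 genes encode subunits of the same protein and read apart with bilberry. Matches to the CCAAT box (CCAAT on either strand) are in capitals. The windows run 5′ to 3′ on GRCm38.p6 of RefSeq, at chr9:55512244-55512493 on the minus strand for Etfa and chr7:43443822-43444071 on the plus strand for Etfb:
Etfa: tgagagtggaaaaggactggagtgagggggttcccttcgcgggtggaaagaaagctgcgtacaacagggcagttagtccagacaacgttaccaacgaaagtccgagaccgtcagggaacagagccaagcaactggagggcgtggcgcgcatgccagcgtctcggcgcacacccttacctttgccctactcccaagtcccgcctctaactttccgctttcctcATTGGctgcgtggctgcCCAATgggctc
Etfb: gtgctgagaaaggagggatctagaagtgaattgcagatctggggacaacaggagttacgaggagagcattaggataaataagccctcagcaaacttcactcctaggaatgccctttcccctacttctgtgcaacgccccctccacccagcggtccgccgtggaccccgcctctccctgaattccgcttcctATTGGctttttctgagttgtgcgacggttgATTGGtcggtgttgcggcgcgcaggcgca
Each window held 2 matches. CCAAT was found in 33.8% of all 32851 windows of this length and in 13 of the 33 windows (39.4%) of the 28 genes of the list that had one. The nuclear receptor half-site AGGTCA, on either strand, was found in 14.0% of all windows and in 5 of the 33 (15.2%), those of Acadm, Acadvl, Cpt1a, Echs1 and Scp2. Peroxisome proliferator-activated receptors bind the direct repeat of this half-site with 1 base between. Its exact letters, on either strand, were in 11 of all windows (0.0335%) and in 0 of the 33. At so low a share 33 windows cannot tell the list from other genes, and imperfect repeats were not searched. These matches describe the letters of the windows alone.

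Etfa had levels of 3.90 for DMSO, 3.29 for bilberry, 3.85 for delphinidin and 3.78 for cyanidin. Etfb had levels of 6.49, 7.19, 6.65 and 6.70 in the same order. Bilberry was therefore the lowest array for Etfa, 1.53-fold under DMSO, and the highest for Etfb, 1.62-fold over DMSO. With the single anthocyanidins, Etfa read -0.05 and -0.12 and Etfb 0.16 and 0.22. The Etfa probe spans 17473 bases of the genome (chr9:55262967-55280439 on mm8, the build of the files, minus strand), so it joins exons, whereas the Etfb probe lies in a single stretch of 60 bases (chr7:43325628-43325687, plus strand). Each gene had 1 probe. Etfdh, the oxidoreductase that passes the electrons on to ubiquinone, read -0.06 for bilberry, 0.23 for delphinidin and 0.20 for cyanidin at its brighter probe and -0.63, 0.08 and -0.08 at the other.

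Among the enzymes of peroxisomal oxidation, Acox2 was far below the DMSO array in every treatment. Its levels were -1.41 for DMSO, -5.17 for bilberry, -5.51 for delphinidin and -4.87 for cyanidin. The DMSO array was the high one, and Acox2 read 13.5-fold lower with bilberry, 17.1-fold lower with delphinidin and 11.0-fold lower with cyanidin. These folds depended on the background correction: with normexp the log2 ratios were 0.054 for bilberry, -2.42 for delphinidin and -2.26 for cyanidin, and after its refit without spots marked for their local background the bilberry ratio was -1.75. On the percentile scale, 0.0173%, 0.00866% and 0.026% of the 11542 genes well above background had lower ratios. The gene had 1 probe, spotted once (chr14:7019530-7023919 on mm8, minus strand, across an exon junction), so the 3 ratios rest on the same DMSO spot.

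That DMSO spot was uneven, though the software did not mark it. Its processed signal was 323, where the bilberry, delphinidin and cyanidin spots had 16, 22.1 and 34.7. The SD of its pixels was 267, which is 5.82 times the median of 45.8 among 3054 spots of like signal on that array, and 2 of those spots (0.0655%) had a higher one. On the other arrays the Acox2 spot was at 1.07 to 1.14 times, and all 302 readings of the other genes' spots with enough signal lay between 0.44 and 2.23 times. On the DMSO array, 142 of 25674 spots (0.553%) exceeded 3 times the like-signal median and 17 (0.0662%) reached the value of Acox2. The median of the spot's pixels, less its local background, was 294.5, against 21.5, 25 and 41 on the bilberry, delphinidin and cyanidin arrays, so the DMSO spot was the bright one by this measure too. Of the 51 genes well above background that were over 2-fold lower in all 3 treatments, 8 had a DMSO spot over 3 times the like-signal median. The part of the unevenness in the ratios was not tested beyond these values. Its ratio of delphinidin to cyanidin, which does not use the DMSO spot, was -0.64 on dim spots, and -0.16 with normexp and with its refit.

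**Figure D2:**
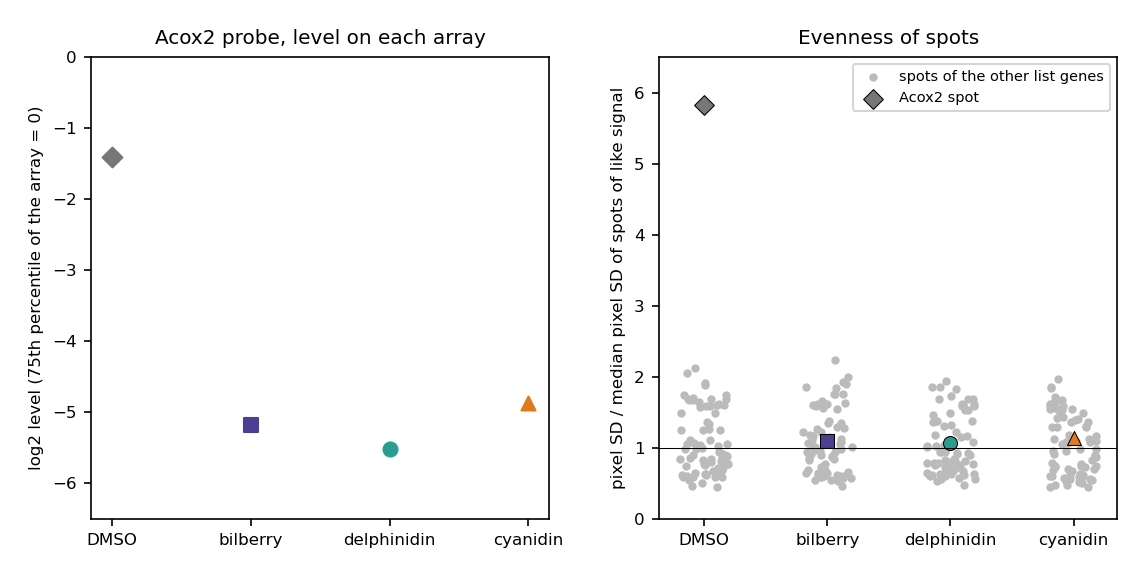
Left, log2 level of the Acox2 probe on each array, from -1.41 with DMSO to -5.51 with delphinidin. Right, the SD of a spot's pixels divided by the median SD of spots of like signal on its array, with Acox2 as large symbols and the other genes' spots in grey; the Acox2 spot on the DMSO array, at 5.82, stands above all others, which reach 2.23.

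Of the other peroxisomal oxidation enzymes, Scp2 was lower with bilberry and Decr2 was lower in each treatment on the percentile scale. Acox3, the oxidase closest to Acox2 in substrates, read 0.13 for bilberry, -0.02 for delphinidin and 0.20 for cyanidin. Acaa1a, a peroxisomal thiolase, had levels of 5.58 for DMSO, 5.96 for bilberry, 5.47 for delphinidin and 5.55 for cyanidin. Its bilberry array was the high one at 0.37, and its other probes read 0.25 and 0.22 there. Scp2, whose longer product is the thiolase for branched chains, had levels of 4.52, 3.96, 4.57 and 4.53 with DMSO, bilberry, delphinidin and cyanidin. Bilberry alone was low, 1.48-fold under DMSO, and the other 3 arrays lay within 0.05 of each other. Decr2, the peroxisomal dienoyl-CoA reductase, was at -0.35, -0.37 and -0.36 on the percentile scale and at -1.89, -0.12 and -0.13 under spike-in scaling. Amacr, the racemase for branched acyl-CoA, read 0.30, 0.00 and 0.18, and Hsd17b4, the bifunctional enzyme for branched chains, read 0.21, 0.07 and 0.12. Ehhadh, the bifunctional enzyme for straight chains, did not pass the background test on any array.

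The 7 peroxins build the peroxisome and import its enzymes. With bilberry 4 of them were higher than DMSO by more than the spot interval, beside 51.3% of all genes well above background. By the same measure 1, Pex5, was lower, beside 28.7%. With delphinidin 2 of 7 were higher, beside 26.8%, and with cyanidin 4, beside 31.3%. Under spike-in scaling the peroxins read lower than DMSO with bilberry. Their bilberry median of 0.29 lay under the 0.34 of all named genes. Pex14, the docking protein of the import channel, had levels of 0.56 for DMSO, 1.34 for bilberry, 0.83 for delphinidin and 0.78 for cyanidin. All treatments were above DMSO and bilberry was highest, at 1.72-fold. Pex19, the chaperone of peroxisomal membrane proteins, had levels of 1.51, 2.09, 1.86 and 1.95 in the same order. Its second probe also read above DMSO in each treatment, at 0.39, 0.25 and 0.31. Pex16, which recruits membrane proteins, read 0.58, 0.11 and 0.29, and 0.50, 0.09 and 0.30 at its second probe. Pex13, a partner of Pex14, read 0.29, 0.15 and 0.30, and 0.28, -0.07 and 0.32 at its second probe. Pex11a, which promotes peroxisome division, read 0.15 ± 0.02 over 10 pairs of spots with bilberry, 0.00 ± 0.02 over 9 with delphinidin and 0.12 ± 0.02 over 10 with cyanidin. Its levels were 4.12 for DMSO, 4.27 for bilberry, 4.12 for delphinidin and 4.24 for cyanidin. Of the import receptors, Pex5 read -0.16, -0.13 and -0.06, or -0.54, -0.27 and -0.28 at its second probe, and Pex7 read -0.07, -0.00 and -0.04.

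Of the transporters that bring acyl-CoA into peroxisomes, Abcd3 had levels of 4.27 for DMSO, 4.26 for bilberry, 4.42 for delphinidin and 4.30 for cyanidin at its brightest probe. Its other probes read -0.84 and -0.75 with bilberry, so that the bilberry value depended on the probe. Abcd2 was not well above background with bilberry and was dim on the other arrays, at -5.43 with DMSO, -5.22 with delphinidin and -5.62 with cyanidin.

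Set beside all genes, the list lay highest with cyanidin. Its median ratio to DMSO was 0.24 for bilberry, 0.04 for delphinidin and 0.15 for cyanidin, where all named genes had 0.34, -0.10 and -0.08. Above those medians lay 13, 27 and 28 of the 34 genes. Within the genes well above background on each array, the medians of the list were 0.24, 0.04 and 0.17 and those of all genes 0.17, -0.00 and 0.02. The difference with bilberry thus turned from -0.10 to 0.06 between these backgrounds, while with cyanidin it was 0.24 and 0.14. With cyanidin 16 of 32 genes were higher than DMSO by more than the spot interval and 2 were lower, where 31.3% and 26.7% of all genes well above background were. With delphinidin these counts were 8 and 4 of 32, beside 26.8% and 28.8%, and with bilberry 18 and 6, beside 51.3% and 28.7%.

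**Figure D3:**
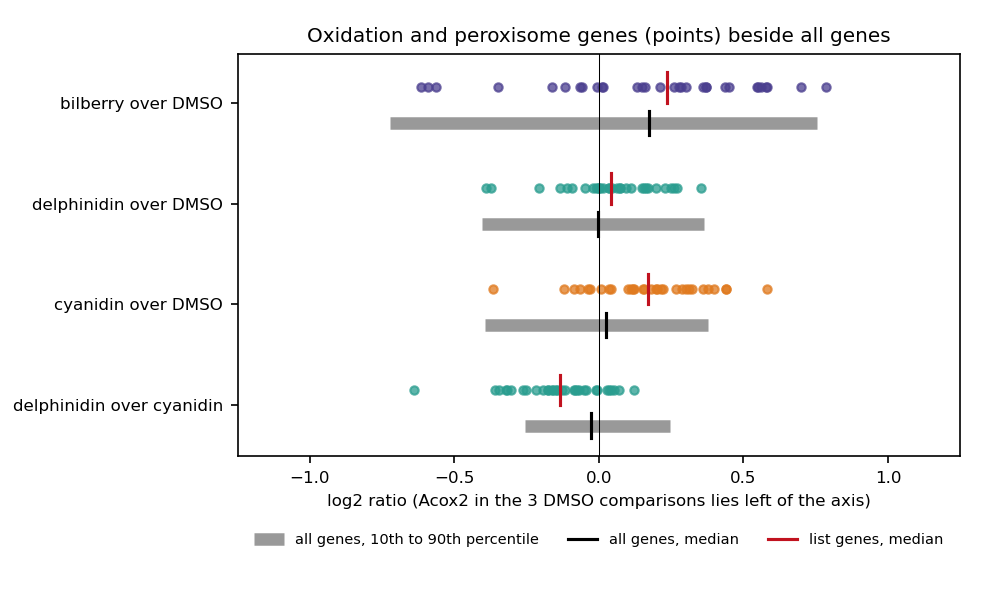
Log2 ratios of the 32 genes of the list well above background on all 4 arrays (points, red line their median) beside all 11542 such genes (grey bar from the 10th to the 90th percentile, black line their median), for each treatment over DMSO and for delphinidin over cyanidin; Acox2 lies off the axis in the DMSO comparisons. The list's median exceeds that of all genes by 0.14 with cyanidin and lies 0.11 under it for delphinidin over cyanidin.

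Markers of the cell types moved between the same arrays. The summed linear level of the 11 adipocyte markers was 416 for DMSO, 296 for bilberry, 457 for delphinidin and 500 for cyanidin. Such a sum follows its brightest probes, and Fabp4 alone went from 265 with DMSO to 137 with bilberry. The median ratio of the 11 with bilberry was 0.02, with 6 above 0, Cebpa at 0.50 and Plin1 at 0.39 among them, and 5 below, of which Adipoq, Retn and Slc2a4 were over 2-fold lower. The sum of the 7 preadipocyte and fibroblast markers was 695, 813, 650 and 608, while their median ratio with bilberry was -0.10, with 3 above 0, Col1a1 at 0.42 and Col1a2 at 0.54 among them, and 4 below, Thy1 at -1.20 the lowest. Of the markers of other tissues that oxidize fatty acids, Ucp1 of brown adipocytes, Alb of hepatocytes and Ckm of skeletal muscle failed the background test on each array. Well above background on all arrays were Dio2 and Elovl3 of the 4 brown adipocyte markers, Acta1 of the 4 of skeletal muscle and 0 of the 4 of hepatocytes, and Cidea of brown adipocytes passed on 3 arrays. With cyanidin the median ratio was 0.31 for the adipocyte markers, with 8 of 11 above 0, and -0.26 for the preadipocyte and fibroblast markers, with 0 of 7 above 0. With delphinidin these medians were 0.06 and -0.15. The part of the adipocyte and fibroblast markers in these ratios was not tested, and in bulk RNA fewer cells of a type and less RNA per cell cannot be told apart.

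Delphinidin and cyanidin, which differ by an extra hydroxyl group on the B ring of delphinidin, were given at the same 100 nM and read on the same day, and this was the 1 pair of compounds compared. No gene of the list differed by 2-fold between them, where 6.32% of all named genes and 0.684% of genes well above background did. At 1.5-fold 0 of 32 were higher with delphinidin, beside 1.37%, and 1 was lower, the dim Acox2, beside 1.46%, a call lost with normexp and its refit at -0.16. Within these limits most of the list read lower with delphinidin. Below 0 were 26 of 32 genes, beside 56.7% of all genes well above background, and the median was -0.14 where that of all such genes was -0.03. Other genes of the same pathways, read outside the list and without the background filter, lay nearer to all named genes. Of these 61 genes 23 were above 0, beside 39.6% of all named genes, and 8 of the 34 list genes were. Their median was -0.05, where all named genes had -0.02 and the 34 list genes -0.12. Beyond the spot interval, 14 of 32 genes were lower and 0 were higher, beside 22.5% and 17.0% of all genes well above background.

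The genes lower with delphinidin than with cyanidin by more than the spot interval were 9 of 16 mitochondrial genes, Crat among them, and 5 of 16 peroxisomal genes, beside the 22.5% of all genes, and the 5 include the dim Acox2 and Crot. Cpt1a differed by -0.36 ± 0.04 (SD over 9 pairs of spots), and its other probe by -0.37. Hadh differed by -0.34, with an interval from spots of -0.50 to -0.19. Crat and Acadm both differed by -0.32, with intervals of -0.48 to -0.16 and -0.47 to -0.16. Under the alternatives that gave them a value these 4 genes stayed between -0.28 and -0.37, Crat having none without the central rows of the array. Cpt1b at -0.30, Acadl at -0.26 and Crot at -0.25 followed, although the second probe of Crot read 0.08. Of all genes well above background, 4.38% read lower than Cpt1a and 5.03% lower than Hadh. The median was -0.28 over the 6 shuttle genes, -0.26 over the 3 dehydrogenases with values and -0.16 over the 5 enzymes of the later steps, and the highest of these 5 was -0.13. In the peroxisome Acox3 differed by -0.22, Amacr by -0.18 and Pex16 by -0.18.

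The electron transfer genes lay inside the spot interval. They were at 0.07 for Etfa (interval -0.09 to 0.23), -0.05 for Etfb (-0.21 to 0.10) and 0.03 for Etfdh (-0.13 to 0.19). Slc25a20 was at -0.01, Decr2 at -0.01, Scp2 at 0.04 and Pex7 at 0.04. Abcd2, not well above background with bilberry, was the gene outside the interval in the other direction, at 0.40 on dim spots. A difference inside the interval does not show that both compounds act alike, since there was 1 array for each. Of the 11 adipocyte markers the median for delphinidin over cyanidin was -0.16, and the part of this in the list's ratios was not tested.

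**Figure D4:**
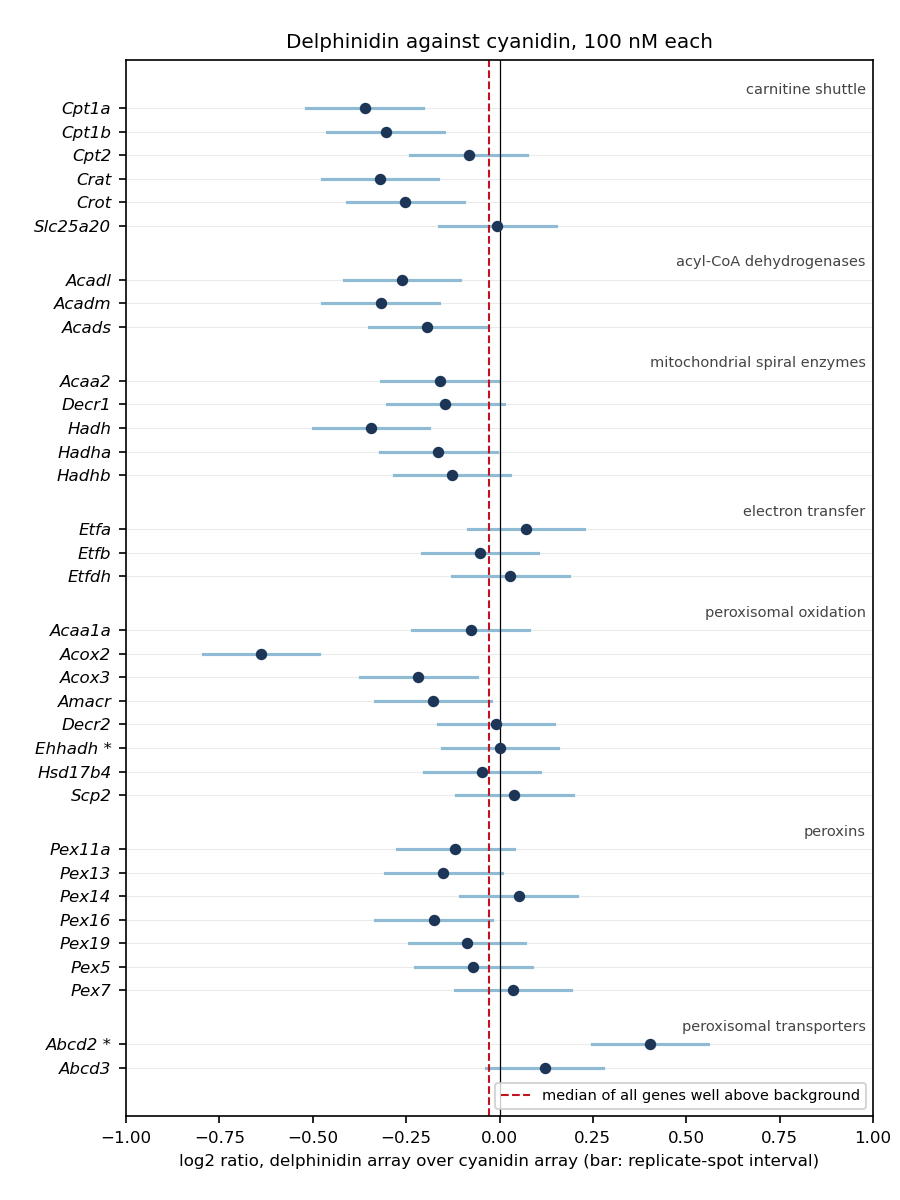
Log2 ratio of the delphinidin array to the cyanidin array for the 34 genes with values, by role; bars span 0.16 on either side, the 95% interval from the spread of replicate spots, which is wider for the dim genes marked with an asterisk than drawn. Genes of the carnitine shuttle, the dehydrogenases and the later mitochondrial steps lie at or left of 0, and Cpt1a lies at -0.36; the dashed line is the median of all genes well above background.

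The agreement of probes gave a further measure of error, as 10 genes of the list had 2 probes on the same transcript. The median difference between such probes, regardless of sign, was 0.28 for bilberry, 0.12 for delphinidin and 0.08 for cyanidin, where 3827 such pairs of all genes gave 0.24, 0.10 and 0.15. For bilberry it was 0.19 over the 9 pairs in which each array read both probes well above background, beside 0.23 for 3623 such pairs of all genes. With bilberry 4 of the 10 pairs lay over 0.5 apart, beside 27.1% of all pairs. These were the pairs of Cpt1b, Crot, Abcd3 and Etfdh, and in each the probe nearer the 5′ end read lower. In each it was also the dimmer probe, so position and signal cannot be told apart in these pairs. In the pairs of Pex13 and Pex16 the dimmer probe was the one nearer the 3′ end. There it read lower with bilberry, at 0.280 against 0.285 and at 0.50 against 0.58. The dimmer probe of Cpt1a, nearer the 5′ end, read higher, at 0.59 against 0.55. In all, the upstream probe was the lower one in 7 of 10 pairs with bilberry, 6 with delphinidin and 8 with cyanidin, beside 52.9%, 50.9% and 52.1% of all pairs. In the pairs of Cpt1a, Decr1, Pex13, Pex16 and Pex19 both probes read above DMSO for bilberry and cyanidin, while a further Pex13 probe, from another transcript record, read -0.04 and -0.43 there and -0.37 for delphinidin.

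**Figure D5:**
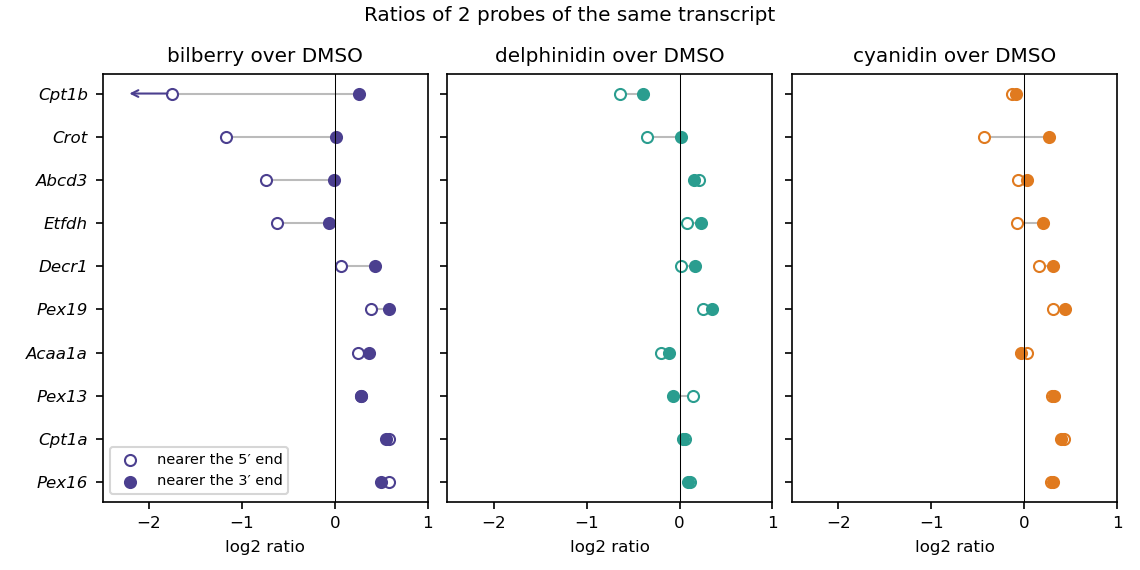
Log2 ratio to DMSO at 2 probes of the same transcript for 10 genes, with open circles for the probe nearer the 5′ end and filled circles for that nearer the 3′ end; each panel is 1 treatment and genes are ordered by their difference with bilberry. The arrow on the open circle of Cpt1b with bilberry marks a bound of -1.76, since that probe was not well above background there, against 0.26 at the other probe, and the pairs of Cpt1a and Pex16 are at most 0.08 apart in each panel.

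Outside the list, 62 other genes of the same pathways were read, 61 with values and 50 well above background on all arrays. With bilberry 4 of 61 passed 2-fold (1 higher, 3 lower), beside 13.5% of all named genes. With delphinidin 2 did (both lower), beside 7.25%, and with cyanidin 2 did (1 higher, 1 lower), beside 6.76%. None passed in all 3 treatments, and in each treatment 1 of those past 2-fold was well above background on all arrays, namely Phyh for bilberry and delphinidin and Acot2 for cyanidin. Phyh, which starts the peroxisomal alpha-oxidation of phytanic acid, had levels of 0.51 for DMSO, -0.86 for bilberry, -0.52 for delphinidin and -0.42 for cyanidin. DMSO was its high array, with ratios of -1.38, -1.03 and -0.94. Acot2, a mitochondrial acyl-CoA thioesterase, had dim levels of -3.86, -4.54, -3.58 and -2.82 in the same order and was the gene over 2-fold higher with cyanidin, at 1.04. The 6 regulators had median ratios of 0.20 for bilberry, -0.08 for delphinidin and -0.08 for cyanidin, with 4, 3 and 2 of them above 0. Among them Ppargc1b, a coactivator of mitochondrial genes, was named after its values were seen and read 0.84, 0.65 and 0.76. Ppargc1a read -0.14, 0.15 and -0.26 in the same order. Ppara, the receptor that drives these genes in liver, failed the background test on each array.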

How the data were processed

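RNA of 4 cultures was measured on 1-colour Agilent arrays. The authors deposited the Feature Extraction output (version 9.5.1.1 in the file headers), whose processed signal is an intensity with background subtracted. A deposited table of the series holds the same intensity (largest relative difference 0). Signals were divided by the 75th percentile of their array, as in the study's methods but over the 43379 non-control spots and with no floor (the lowest signal was 2.18), and converted to log2. Spots marked as outliers were dropped and spots of a probe averaged. A gene was read at its brightest probe with 4 values. Of 41174 probes, 24325 were named by RefSeq accession and 6304 by symbol, and 10492 stayed unnamed. Probe coordinates are on mm8. Thresholds were 2-fold, without a detection filter, and 1.5-fold. Upstream windows came from RefSeq on GRCm38.p6.

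The members and lists were chosen with earlier results of these data known. Full values were given for members past 2-fold and the brightest of each role, and, after their values were seen, for further members that stood apart. Outside the list, genes past 2-fold in all 3 treatments, or well above background and past 2-fold in any, were named. With 1 array per condition no test was made. Alternatives were normexp with an offset of 50, its refit, quantile and spike-in scaling, median scaling over detected probes, marked spots kept, the mean of probes, a detection filter, the central rows of the array left out, the deposited table and other thresholds. Those for probe pairs were chosen after seeing the data. The calculations were tested on simulated data. Python 3.11.15, numpy 2.4.6, pandas 2.3.3, matplotlib 3.10.9, R 4.3.3 and limma 3.58.1 were used.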

Additional observations from a re-analysis of the deposited data

How the results depend on the processing

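No paired analysis was possible because each condition had 1 array, and no replicate could be left out. The bilberry values depended most on the processing. The number of genes past 2-fold, 1 in the main setting, was 6 with normexp, whose fitted mean background for bilberry was -345. After its refit without spots marked for their local background that mean was -5.65 and the number was 1, Acox2. The number was 26 with spike-in scaling, all lower, 2 with the mean of all probes, which added Cpt1b, and 5 at 1.5-fold. The bilberry median less that of all genes, -0.10 in the main setting, was -1.12 with normexp, -0.17 after its refit and -0.0057 with quantile normalization. It was -0.30 without the central rows of the array and 0.063 among genes well above background, where its sign turned. With delphinidin and cyanidin the count fell from 1 to 0 without the central rows, which leaves 21 members and drops Acox2, and the bilberry count stayed at 1 with Cpt1b, read at its dimmer probe, in place of Acox2. The median difference with delphinidin, 0.14, was 0.024 with quantile normalization and 0.044 among genes well above background, and with cyanidin 0.24 became 0.12 and 0.14. For delphinidin over cyanidin the count was 1 at 1.5-fold, and the median difference kept its sign in all alternatives, with 24 of 34 genes below the median of all genes in the main setting and with quantile normalization and 25 with normexp. The Acox2 ratio with bilberry was 0.054 with normexp and -1.75 after its refit. Spike-in scaling moves all bilberry ratios by the same amount, and the 23 of 34 genes above 0 all turned below it. Signs of single bilberry ratios turned for 17 of 34 genes under normexp, 2 after its refit and 6 under quantile normalization. The cause of the other shifts was not tested. Signal over background limits what can be read for Ehhadh, Abcd2 and the dimmer probes.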
